A study of Mus musculus with 8 samples.

Results

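The genes described here were 10 components and feedback targets of the FGF and ERK signalling pathway, Fgf4, Fgfr1, Dusp4, Dusp6, Spry2, Spry4, Etv4, Etv5, Egr1 and Fos. They were taken by name, as every non-control probe that the scanner output assigned to one of these genes, which gave 13 probes of the 39429 on the array and 22 spots per array. All 10 genes passed the filter on dim probes, among 18116 genes tested. mRNA was measured on 8 single-colour Agilent arrays of mouse E14 embryonic stem cells (ESCs). There were 4 groups of 2 biological replicates, named A and B. Control KD cells carried a hairpin against EGFP, which the cells do not express. Tip60 KD cells carried one against Tip60 (gene Kat5), the acetyltransferase of the Tip60-p400 chromatin remodelling complex, Hdac6 KD cells one against the deacetylase Hdac6, and double KD cells both. All groups, the control included, received lentivirus and were collected 72 h after infection in medium with 10% serum and LIF, without feeder cells. Each gene was targeted with 1 hairpin chosen for its strength, so that effects of the hairpin's sequence and of losing its target cannot be told apart.

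FGF4 is secreted by ESCs themselves and binds FGF receptors on the same cells. The receptors recruit adaptors that activate Ras, Raf, MEK and finally the kinases ERK1 and ERK2, which phosphorylate transcription factors. Serum response factor and its ETS partners then induce immediate early genes such as Fos and Egr1, and a slower set of ERK-dependent genes follows, among them the ETS factors Etv4 and Etv5 and the inhibitors Spry2, Spry4, Dusp4 and Dusp6, which dampen the signal that induced them. In mouse ESCs this pathway is known for priming cells to leave the pluripotent state.

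Promoter sequences are shown for Fos, the gene with the lowest levels relative to control in all 3 KDs, and Dusp6, an inhibitor that was higher in 2 of them. Each line is the 250 bases before the transcription start, 5′ to 3′ on the gene's strand, from RefSeq on GRCm38.p6. The window lies at chr12:85473640-85473889 on the plus strand for Fos and at chr10:99262981-99263230 on the plus strand for Dusp6. Capitals mark matches on either strand to TATAAA (the TATA box), TGACGT (the core of the cAMP response element), CGGAA (a core bound by ETS factors) and CACGTG (the E-box bound by Myc). No match overlapped another.
Fos: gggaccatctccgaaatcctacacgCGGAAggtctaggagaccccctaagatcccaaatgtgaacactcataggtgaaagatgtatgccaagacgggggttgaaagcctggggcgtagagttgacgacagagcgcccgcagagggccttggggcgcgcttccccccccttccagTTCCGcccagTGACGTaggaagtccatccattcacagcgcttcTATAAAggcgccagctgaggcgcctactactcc
Dusp6: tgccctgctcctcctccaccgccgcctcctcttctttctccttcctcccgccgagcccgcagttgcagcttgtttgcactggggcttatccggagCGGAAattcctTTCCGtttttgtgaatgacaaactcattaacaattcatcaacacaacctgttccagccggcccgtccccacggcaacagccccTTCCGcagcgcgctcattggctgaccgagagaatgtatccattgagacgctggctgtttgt
The Fos window held a TATA box beginning 33 bases before the start, a cAMP response element core at 66 bases, and ETS cores at 76 and 225 bases. The Dusp6 window held ETS cores at 61, 144 and 155 bases and none of the other motifs. Over all 32851 promoter windows in the table, 12.4% held TATAAA, 6.47% TGACGT, 25.2% CGGAA and 6.02% CACGTG. The windows of Fgf4 and Spry2 and both windows of Etv5 held none of the 4, and Fgfr1, Dusp4, Spry4, Etv4 and Egr1 had no entry. A match is a run of letters and does not show that a factor binds there.

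Levels are given throughout as log2 of a probe's processed signal divided by the 75th percentile of its array, so that 0 is the level of that percentile and 1 unit is a doubling. Levels of different probes are not comparable with each other. Signals below 0.153 of the percentile (-2.71 on the log2 scale), the highest level at which any array's dimmest probe still stood above background, were raised to that floor. Kat5 levels were 1.34 and 1.37 in control KD, 0.00 and 0.01 upon Tip60 KD, and -0.11 and 0.20 upon double KD, or 39.2% and 40.4% of control. Hdac6 mRNA fell to 17.8% of control upon Hdac6 KD and 27.3% upon double KD, and it was 73.9% of control upon Tip60 KD. All 10 listed ESC markers were well above background on all 8 arrays. Upon Tip60 KD 3 of them passed the test as higher and 1 as lower. Upon Hdac6 KD 2 were higher and 1 lower, and upon double KD 3 were higher and 2 lower. Pou5f1 was higher in all 3 KDs and Dppa3 lower in all 3. Of all genes, 39.7%, 28.9% and 32.8% passed upon Tip60 KD, Hdac6 KD and double KD. Of 32 listed markers of primitive endoderm, mesoderm, neural, trophectoderm and fibroblast cells, 17 were bright enough to test. In a bulk sample, fewer expressing cells and less mRNA per cell cannot be told apart.

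Replicates A lay on 1 slide and replicates B on the other, so that the letter and the slide coincide. The background that the scanner software had subtracted, by its median on each array, ran from 37.2 to 114 signal units, highest on the control KD B array, while negative control spots had medians of 33.6 to 37.2. Of the 22 spots for the 10 genes, all were well above background on 7 arrays. On the Tip60 KD B array 12 of 22 were, and the 10 that were not were the repeated spots of the Fos probe. Each group kept the same position on both slides, so position and group cannot be told apart.

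Upon loss of Tip60, Hdac6 or both, the 10 genes did not move as a block. Etv4 rose 1.79-fold to 1.89-fold in all 3 KDs, while Fos and Egr1 fell in all 3. Dusp6 rose upon Hdac6 KD and double KD, and Dusp4 fell upon Tip60 KD and double KD. Fgf4, Fgfr1, Spry2, Spry4 and Etv5 did not pass the test against control KD in any of the 3. All of these but Spry2 passed in some KD once the slide was fitted as a block. In that fit 60.8%, 52.9% and 55.4% of all genes passed upon Tip60 KD, Hdac6 KD and double KD. The test was limma's moderated test over all genes with Benjamini-Hochberg adjustment and a threshold of 0.1, fitted to all 8 arrays.

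Upon Tip60 KD, 4 of the 10 genes passed, 1 higher and 3 lower, where 39.7% of all genes passed, 19.7% higher and 20.0% lower. Upon Hdac6 KD, 4 passed, 2 higher and 2 lower, where 28.9% of all genes did, 14.0% higher and 14.9% lower. Upon double KD, 5 passed, 2 higher and 3 lower, where 32.8% of all genes did, 15.9% higher and 16.9% lower. The shares of the 10 genes thus lay near the background in each KD. Each count includes Fos as lower. It lay at the floor on all 6 KD arrays and passed the filter through the control KD arrays alone. The median log2 change of the 10 genes was -0.01 upon Tip60 KD, 0.07 upon Hdac6 KD and 0.01 upon double KD. Over all genes it was 0.06, 0.03 and 0.05.

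Between the KDs, 4 of the 10 genes passed for Tip60 KD against Hdac6 KD, all lower upon Tip60 KD, where 23.5% of all genes passed. For double KD against Tip60 KD, limma called none of the 10 genes, where 3.71% of all genes passed. At the looser cutoff of an unadjusted p under 0.05 there were 3 of the 10, and the share of all genes at that cutoff is not given here. For double KD against Hdac6 KD, 1 gene passed, Dusp4, where 10.1% of all genes did. The interaction, which asks whether the change upon Tip60 KD was the same with Hdac6 also knocked down as without, passed for 3 genes, Etv4, Egr1 and Fos, where 22.0% of all genes passed. For Fos this value was fixed by the floor, since all 6 KD arrays lay on it.

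With the slide as a block, the counts rose to 7, 7 and 7 of 10 genes for Tip60 KD, Hdac6 KD and double KD against control KD, where 60.8%, 52.9% and 55.4% of all genes passed. The blocked counts were 6 for Tip60 KD against Hdac6 KD (41.5% of all genes), 4 for double KD against Tip60 KD (26.2%), 4 for double KD against Hdac6 KD (29.4%) and 5 for the interaction (47.1%). Where the block changed the call for a gene against control KD, the blocked value stands with that gene. Comparing within each slide, 9 of the 10 genes moved the same way on both slides in each KD, the exception being Spry2. The share of all genes that did so is not given here. Some of these changes were near 0, such as 0.006 for Fgfr1 upon double KD on the slide of replicates B.

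**Figure D1:**
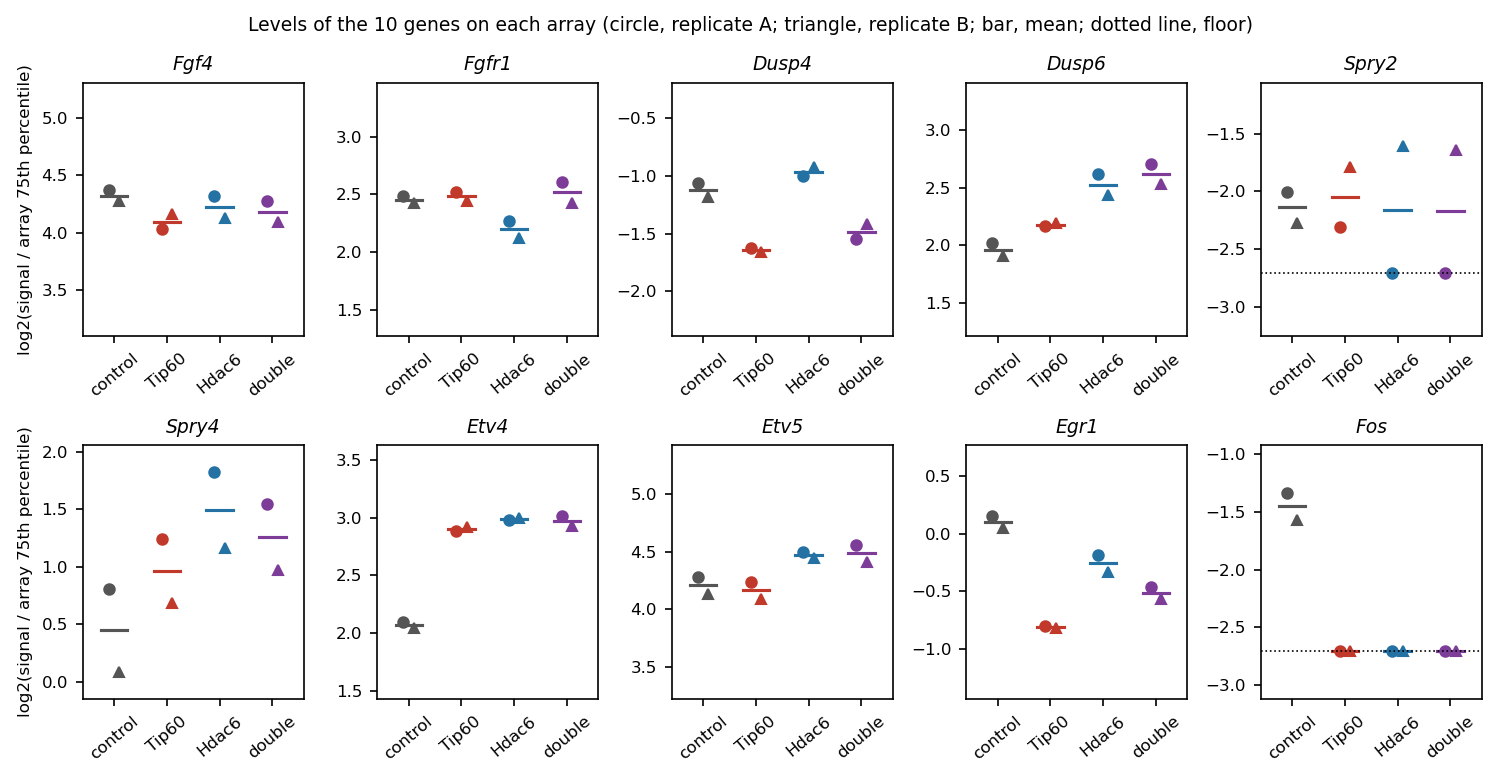
Levels of the 10 genes as log2 of signal over the array's 75th percentile (y axis, the same span in every panel) in the 4 groups (x axis); each point is 1 array, each bar the mean of 2, and the dotted line the floor at -2.71. Both control KD arrays lie below all 6 KD arrays for Etv4 and above all 6 for Egr1 and Fos, and replicate A lies above replicate B in every group for Spry4.

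Neither the ligand nor the probe that stood for its receptor passed the test against control KD, while other probes of the receptor did. Fgf4, the FGF that ESCs secrete, had levels of 4.37 and 4.28 in control KD, 4.03 and 4.16 upon Tip60 KD, 4.32 and 4.13 upon Hdac6 KD, and 4.28 and 4.09 upon double KD. Both Tip60 KD arrays were below both control arrays, whereas the other KDs overlapped the control. Its log2 change was -0.23 ± 0.11 (SE) upon Tip60 KD (limma adjusted p = 0.189), and -0.10 and -0.14 upon Hdac6 KD and double KD. With the slide as a block, the Tip60 KD value passed (adjusted p = 0.0916). Its probe lies at chr7:152051089-152051148 on the plus strand of mm9, the build of all probe positions given here.

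Fgfr1 encodes an FGF receptor of ESCs and had 3 probes on the array, which did not behave alike. The brightest, A_55_P2057777 (chr8:26685072-26685131), stood for the gene in the test. Its levels were 2.48 and 2.42 in control KD, 2.52 and 2.44 upon Tip60 KD, 2.27 and 2.12 upon Hdac6 KD, and 2.61 and 2.43 upon double KD. Both Hdac6 KD arrays were below all 6 others, with a log2 change of -0.26 ± 0.10 (adjusted p = 0.133, or 0.018 with the slide as a block). The changes upon Tip60 KD and double KD were 0.03 and 0.07.

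A second Fgfr1 probe, A_55_P1967022, lies upstream at chr8:26684061-26684120 on the plus strand of mm9. It is the Fgfr1 probe whose values gave the largest change, so its sequence is shown, read from the scanner output. It holds no stop codon in 2 of its 3 forward reading frames.
A_55_P1967022: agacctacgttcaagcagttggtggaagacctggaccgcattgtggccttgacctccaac
This probe read -1.03 and -1.15 in control KD, -0.78 and -0.50 upon Tip60 KD, -0.97 and -0.82 upon Hdac6 KD, and -0.66 and -0.50 upon double KD. All 6 KD arrays were above both control arrays. Fitted with every probe on its own, it was higher by 0.45 ± 0.13 upon Tip60 KD (limma adjusted p = 0.0405) and by 0.51 ± 0.13 upon double KD (adjusted p = 0.0346), whereas its 0.20 ± 0.13 upon Hdac6 KD did not pass (adjusted p = 0.347). The third probe, A_55_P1967015 (chr8:26685820-26685879), was higher by 0.31 ± 0.12 upon Tip60 KD (adjusted p = 0.0962), and its values were 0.20 upon Hdac6 KD and -0.05 upon double KD. Upon Tip60 KD all 3 Fgfr1 probes had values above 0, of which 2 passed, whereas upon Hdac6 KD and double KD the probes differed in sign.

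In that fit, 7 of the 13 probes of the 10 genes passed upon Tip60 KD, 4 higher and 3 lower, where 40.6% of all 22594 probes tested did. Upon Hdac6 KD 5 passed, where 30.0% of all probes did, and upon double KD 8 passed, where 33.8% did.

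**Figure D2:**
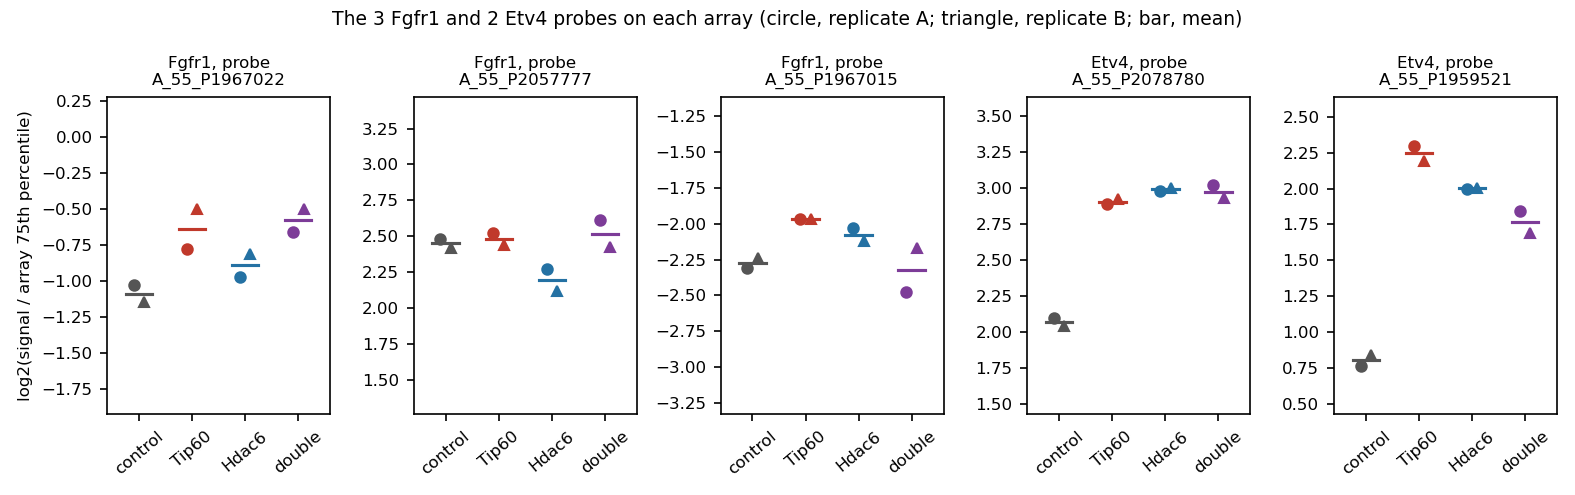
Levels (y axis, log2 of signal over the array's 75th percentile) of the 3 Fgfr1 and 2 Etv4 probes in the 4 groups (x axis); each point is 1 array and each bar the mean of 2. The middle Fgfr1 panel shows the probe used in the test, in which only Hdac6 KD stands apart, while both Etv4 probes are higher on all 6 KD arrays than on both control arrays.

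The MAP kinase phosphatases moved in different directions. Dusp4 is a nuclear phosphatase that inactivates ERK and related kinases, with its probe at chr8:35882045-35882104 on the plus strand. Its levels were -1.06 and -1.18 in control KD, -1.63 and -1.66 upon Tip60 KD, -0.999 and -0.923 upon Hdac6 KD, and -1.54 and -1.42 upon double KD. The 4 arrays of cells with Tip60 knocked down, alone or with Hdac6, lay below the 4 others. Dusp4 fell by 0.53 ± 0.09 on the log2 scale upon Tip60 KD (adjusted p = 0.00707), to 69.4% of control. Upon double KD it fell by 0.36 ± 0.09 (adjusted p = 0.0308), to 77.7% of control.

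Upon Hdac6 KD the Dusp4 value was 0.16 ± 0.09 (adjusted p = 0.277). Directly compared, Dusp4 was lower by 1.60-fold upon Tip60 KD than upon Hdac6 KD (adjusted p = 0.00748), and lower by 1.43-fold upon double KD than upon Hdac6 KD (adjusted p = 0.0331). Knocking down Tip60 thus changed Dusp4 by -0.52 with Hdac6 also knocked down and by -0.53 without, an interaction of 0.01 ± 0.12 (adjusted p = 0.983). The double KD change did not pass without the control KD A array or without the double KD A array, where it was -0.30 in both cases. It also did not pass with the authors' deposited log2 values or with the compared arrays alone (limma adjusted p = 0.106). The comparison of double KD with Hdac6 KD did not pass when any 1 of the 4 arrays of those 2 groups was left out. Nor did it pass with normexp background correction, the deposited log2 values or the compared arrays alone.

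Dusp6, also called MKP-3, is a cytoplasmic phosphatase with a preference for ERK and is a widely used readout of FGF signalling. Its levels were 2.02 and 1.91 in control KD, 2.17 and 2.19 upon Tip60 KD, 2.62 and 2.43 upon Hdac6 KD, and 2.71 and 2.53 upon double KD. Levels in the 2 groups with Hdac6 knocked down overlapped each other and lay above all Tip60 KD and control KD arrays. It rose 1.48-fold upon Hdac6 KD (log2 change 0.56 ± 0.11, adjusted p = 0.0173) and 1.57-fold upon double KD (0.66 ± 0.11, adjusted p = 0.00935). Upon Tip60 KD the value was 0.21 ± 0.11 (adjusted p = 0.186, or 0.0501 with the slide as a block).

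Dusp6 was lower upon Tip60 KD than upon Hdac6 KD by 0.35 on the log2 scale (adjusted p = 0.0798), a call that was lost when any 1 array of those 2 groups or of the control group was left out. Double KD lay above Tip60 KD by 0.44 ± 0.11, which did not pass (limma adjusted p = 0.122) but did with the slide as a block. The interaction for Dusp6 was -0.12 ± 0.15 (adjusted p = 0.672). By level alone, Dusp4 split the arrays by whether Tip60 had been knocked down, and Dusp6 by whether Hdac6 had. Both Tip60 KD arrays also read above both control KD arrays for Dusp6.

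The Sprouty proteins block the path from receptors to Ras and Raf. Spry4 had levels of 0.81 and 0.09 in control KD, 1.24 and 0.68 upon Tip60 KD, 1.82 and 1.17 upon Hdac6 KD, and 1.55 and 0.97 upon double KD. Replicate A was above replicate B by 0.56 to 0.72 in every group, so that the slide separated the arrays about as far as the KDs did. The log2 changes were 0.51, 1.05 and 0.81 upon Tip60 KD, Hdac6 KD and double KD, each with an SE of 0.38, and none passed (adjusted p = 0.376, 0.108 and 0.182). Within each slide the changes were nearly equal, at 0.43 and 0.59 upon Tip60 KD, 1.01 and 1.08 upon Hdac6 KD, and 0.74 and 0.89 upon double KD. With the slide as a block the SE was 0.06 and all 3 increases passed (adjusted p = 0.00154, 0.000461 and 0.000625).

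In the same blocked fit, Spry4 upon Hdac6 KD exceeded both Tip60 KD (adjusted p = 0.00271) and the double KD (adjusted p = 0.0529), and its interaction was -0.75 ± 0.09 (adjusted p = 0.00328). The probe lies on chromosome 18 of mm9, from 38745923 to 38745982 on the minus strand. Of all the genes described here, Spry4 was the one whose call rested most on how the slides were treated.

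Spry2 was close to the floor. Its levels were -2.00 and -2.27 in control KD, -2.31 and -1.78 upon Tip60 KD, -2.71 and -1.61 upon Hdac6 KD, and -2.71 and -1.64 upon double KD. On the Hdac6 KD A and double KD A arrays it was at the floor, while the B arrays of the same groups were the 2 highest of all. The changes against control KD were 0.09, -0.02 and -0.04 with an SE of 0.49, so that changes of that size could not have been detected here. Its probe lies at chr14:106291845-106291904 on the minus strand.

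The ETS factors Etv4 and Etv5, transcription factors of the PEA3 subfamily, are induced by FGF signalling in many tissues. Etv4 gave the most uniform increase. Its levels were 2.10 and 2.04 in control KD, 2.89 and 2.92 upon Tip60 KD, 2.98 and 3.00 upon Hdac6 KD, and 3.02 and 2.93 upon double KD. All 6 KD arrays were above both control arrays by at least 0.79 on the same slide, and the 3 KDs lay together. The rise was 1.79-fold upon Tip60 KD (log2 change 0.84 ± 0.07, adjusted p = 0.00125), 1.89-fold upon Hdac6 KD (0.92 ± 0.07, adjusted p = 0.00221) and 1.87-fold upon double KD (0.91 ± 0.07, adjusted p = 0.00177). These calls held under every alternative setting tried.

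The effects of both KDs on Etv4 did not add up. Double KD differed from Hdac6 KD by -0.01 ± 0.07 and from Tip60 KD by 0.07 ± 0.07, and neither difference passed. The interaction was -0.85 ± 0.10 (adjusted p = 0.0104). Hdac6 mRNA was less reduced upon double KD than upon Hdac6 KD, by 0.62 ± 0.07 (limma adjusted p = 0.0147). The double KD was therefore not the sum of both single depletions. The part of this in the interactions given here was not tested. A second Etv4 probe, A_55_P1959521 at chr11:101631322-101631381, lies on the minus strand 5′ to the first at chr11:101631057-101631116. It read 0.77 and 0.84 in control KD, 2.30 and 2.19 upon Tip60 KD, 2.00 and 2.00 upon Hdac6 KD, and 1.84 and 1.69 upon double KD. It rose 2.71-fold, 2.29-fold and 1.95-fold, with adjusted p = 0.0006, 0.00182 and 0.00203. On this probe double KD was below Tip60 KD by 0.48 (adjusted p = 0.0726), a difference that the first probe did not show. With the compared arrays alone and 1 probe per gene, 0 of 18116 genes passed this comparison.

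Etv5 had levels of 4.28 and 4.14 in control KD, 4.24 and 4.09 upon Tip60 KD, 4.50 and 4.44 upon Hdac6 KD, and 4.56 and 4.41 upon double KD. All 4 arrays with Hdac6 knocked down were above all 4 others. The log2 change was -0.04 ± 0.10 upon Tip60 KD (adjusted p = 0.802), 0.26 ± 0.10 upon Hdac6 KD (adjusted p = 0.127) and 0.28 ± 0.10 upon double KD (adjusted p = 0.101). With the slide as a block both of the latter passed (adjusted p = 0.0138 and 0.0104). Etv5 was lower upon Tip60 KD than upon Hdac6 KD by 0.31 (adjusted p = 0.0998), a call that did not hold when any 1 of the 8 arrays was left out. Its probe lies at chr16:22381387-22381446 on the minus strand.

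**Figure D3:**
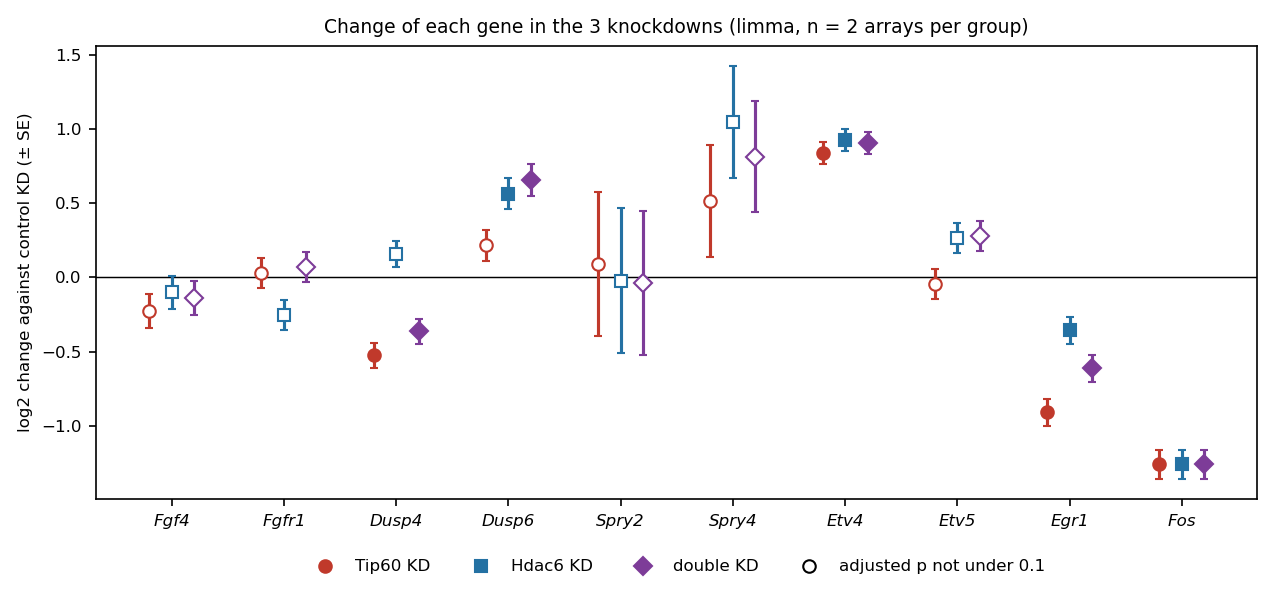
Log2 change (y axis) of each of the 10 genes (x axis) upon Tip60 KD, Hdac6 KD and double KD against control KD, with bars of ± 1 SE from limma; filled points have an adjusted p under 0.1. Etv4 is near 0.9 in all 3 KDs, Egr1 and Fos are below 0 in all 3, Dusp4 and Dusp6 differ between Tip60 KD and Hdac6 KD, and Spry2 and Spry4 have the widest bars.

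The immediate early factors were lower in every KD. Egr1, a zinc-finger factor induced within minutes of ERK activation, had levels of 0.15 and 0.05 in control KD, -0.80 and -0.82 upon Tip60 KD, -0.18 and -0.33 upon Hdac6 KD, and -0.46 and -0.56 upon double KD. No group overlapped another, and the order from highest to lowest was control KD, Hdac6 KD, double KD and Tip60 KD. Egr1 fell by 0.91 ± 0.09 upon Tip60 KD (adjusted p = 0.00158), by 0.36 ± 0.09 upon Hdac6 KD (adjusted p = 0.0398) and by 0.61 ± 0.09 upon double KD (adjusted p = 0.00699), to 53.2%, 78.0% and 65.3% of control.

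Egr1 was lower upon Tip60 KD than upon Hdac6 KD by 0.55 (adjusted p = 0.0136). Double KD did not pass against either single KD (adjusted p = 0.179 against Tip60 KD and 0.176 against Hdac6 KD), but did with the slide as a block (0.0286 and 0.0313). The interaction was 0.65 ± 0.13 (adjusted p = 0.0267), the double KD lying above what the sum of both single changes would give. The Hdac6 KD change ranged from -0.43 to -0.29 over the alternatives and did not pass in 5 of the 18. Among these were the fits without the control KD A array, where it was -0.30, and without the Hdac6 KD B array, where it was -0.29. The Egr1 probe lies on chromosome 18 of mm9, from 35024395 to 35024454 on the plus strand.

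Fos, a partner of Jun in the AP-1 transcription factor, is the gene best covered here, since its probe (chr12:86817900-86817959 of mm9, plus strand) is printed 10 times per array. On the linear scale, as a share of the array's 75th percentile, the 10 spots ran from 0.375 to 0.420 around a median of 0.396 on the control KD A array, and from 0.298 to 0.381 around 0.334 on the control KD B array. Upon Tip60 KD the medians were 0.104 and 0.0642, upon Hdac6 KD 0.129 and 0.0959, and upon double KD 0.128 and 0.121. The highest spot on any KD array, 0.147, was below the lowest control spot. Repeated spots of 1 array share the same RNA and show the error of the measurement, not of the cells.

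All 6 KD arrays were under the floor of 0.153, so the fitted fall of 1.26 ± 0.10 on the log2 scale (adjusted p = 0.000935 upon Tip60 KD, 0.00204 upon Hdac6 KD and 0.00162 upon double KD) is a bound, and Fos was at least 2.39-fold lower in each KD. Fos thus passed the filter on dim probes through the control KD arrays alone. The floor left no spread within any KD group, so the SE and adjusted p of this fit rest in part on the floor. Measured without the floor, the group means were 0.367 ± 0.043 (SD, n = 2) in control KD, 0.117 ± 0.016 upon Hdac6 KD and 0.124 ± 0.0031 upon double KD, or 31.9% and 33.7% of control. Upon Tip60 KD the spots were well above background on 1 of 2 arrays, A, where their mean was 0.104, so the bound stands for that group. With a floor of 0.01 the log2 changes were -2.17, -1.65 and -1.57, all past the threshold, the first resting in part on the Tip60 KD B array, whose spots were not well above background. That array also enters the Tip60 KD to Hdac6 KD difference and the interaction at that floor. At the floor of 0.01 the Tip60 KD value was below the Hdac6 KD value by 0.52 ± 0.25, which did not pass (adjusted p = 0.263). The Fos interaction was 1.26 ± 0.14 (adjusted p = 0.00912) with all 6 KD arrays at the floor, and 2.26 ± 0.36 (adjusted p = 0.0227) with the floor of 0.01. With the KD groups equal at the floor, the 1.26 is the fitted fall with its sign reversed. It therefore cannot tell whether the change upon Tip60 KD depended on Hdac6.

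**Figure D4:**
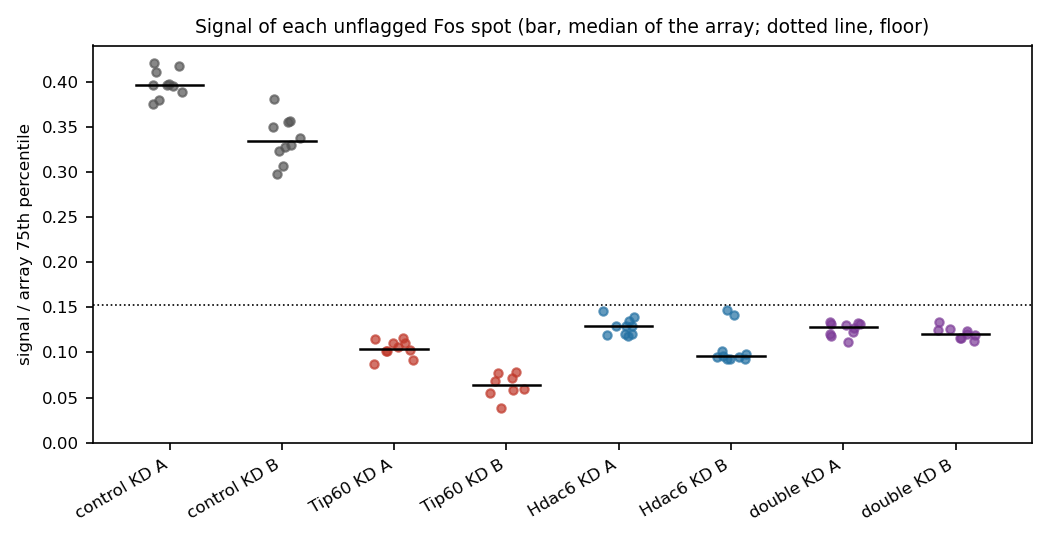
Signal of each unflagged Fos spot as a share of the array's 75th percentile (y axis, linear, from 0) on the 8 arrays (x axis), with the median of each array as a bar and the floor of 0.153 as a dotted line. All control KD spots lie above the floor and every spot of the 6 KD arrays lies below it.

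Fos had the largest F statistic over the 4 groups of the 10 genes (85.2), followed by Etv4 (73.3) and Egr1 (37.8). The F of Fos rests in part on the floor, which left no spread within any KD group. Of 14129 genes above the floor on all 8 arrays, those whose values were most like those of Fos by Pearson's r over the arrays were Bhlha15 (0.998), which encodes a basic helix-loop-helix factor of secretory cells, the array entry NAP114350-1 (0.996), Acss2 (0.994), an acetyl-CoA synthetase, 2410006H16Rik (0.993) and Arfgap3 (0.993), a regulator of Golgi transport. With Fos at the floor on 6 arrays, such an r mostly measures a high level on both control arrays and an even, lower level on the others. Bhlha15, for instance, read -0.82 and -0.99 in control KD and between -1.89 and -1.79 in the KDs.

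Of 76 other genes of the FGF and ERK pathway, 60 could be tested. Myc, the target with the largest change, was higher in all 3 KDs, and Ier3, another ERK target, was lower in all 3. Upon Tip60 KD 33 of the 60 passed, 15 higher and 18 lower, upon Hdac6 KD 23 passed, 15 higher and 8 lower, and upon double KD 27 passed, 13 higher and 14 lower. These are 55.0%, 38.3% and 45.0% of the list, beside 39.7%, 28.9% and 32.8% of all genes. The median change over the list was -0.06, 0.06 and -0.01, and that over all genes 0.06, 0.03 and 0.05.

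Among 5 ligands tested, 2 rose in each KD and none fell. Fgf15, a ligand of the FGF19 subfamily, rose by 1.51 ± 0.13 on the log2 scale upon Tip60 KD (adjusted p = 0.00125) and by 1.24 ± 0.13 upon double KD (adjusted p = 0.00335). Upon Hdac6 KD its rise was 0.71 (adjusted p = 0.0178). Of 5 receptors or coreceptors, 1 fell in each KD, Fgfr4, by 0.95, 0.79 and 0.59, the Hdac6 KD value with an adjusted p of 0.0242 that did not hold without the control KD A array (-0.71) or without the Hdac6 KD B array (-0.62).

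Of 7 adaptors, 1 rose and 2 fell upon Tip60 KD, 2 rose and 1 fell upon Hdac6 KD, and 1 fell upon double KD. Of 14 genes of the kinase cascade, 3 rose and 3 fell upon Tip60 KD, 2 rose and 1 fell upon Hdac6 KD, and 2 rose and 4 fell upon double KD. Rras, a small GTPase of the Ras family, had a value of -0.33 upon Tip60 KD (adjusted p = 0.167) and fell by 0.86 ± 0.15 upon Hdac6 KD (adjusted p = 0.0153) and by 0.79 ± 0.15 upon double KD (adjusted p = 0.0169).

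Of 16 inhibitors tested, 4 rose and 8 fell upon Tip60 KD. Upon Hdac6 KD 3 rose and 3 fell, and upon double KD 4 rose and 6 fell. Spry1, a Sprouty like Spry2 and Spry4, read 2.11 and 2.07 in control KD, 0.98 and 0.75 upon Tip60 KD, 2.16 and 1.97 upon Hdac6 KD, and 1.40 and 1.31 upon double KD. It fell by 1.22 ± 0.11 upon Tip60 KD (adjusted p = 0.00137), whereas the Hdac6 KD arrays overlapped the control. Spred1, a Sprouty-related inhibitor of Ras, rose by 1.36 ± 0.11 upon Hdac6 KD (adjusted p = 0.00236). Among the phosphatases, Dusp14 rose by 1.19 ± 0.17 upon Tip60 KD (adjusted p = 0.00416) and Dusp9, an ERK phosphatase, fell by 0.91 ± 0.09 upon double KD (adjusted p = 0.00236).

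Of 13 targets, 5 rose and 4 fell upon Tip60 KD, 6 rose and 2 fell upon Hdac6 KD, and 5 rose and 2 fell upon double KD. Myc, a proliferation-driving transcription factor, read 0.34 and 0.26 in control KD, 3.57 and 3.33 upon Tip60 KD, 2.35 and 2.16 upon Hdac6 KD, and 3.52 and 3.23 upon double KD. It rose 8.89-fold, 3.88-fold and 8.45-fold (adjusted p = 0.00051, 0.00188 and 0.000795), and all 6 KD arrays were above both control arrays. Etv1, the third PEA3-type ETS factor beside Etv4 and Etv5, rose by 1.65 ± 0.09 upon Hdac6 KD (adjusted p = 0.00124) and by 1.41 ± 0.09 upon double KD (adjusted p = 0.00115). Ier3, an immediate early gene with a role in cell survival, fell by 1.04 ± 0.08, 1.24 ± 0.08 and 1.49 ± 0.08 upon Tip60 KD, Hdac6 KD and double KD (adjusted p = 0.00106, 0.00182 and 0.000997).

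**Figure D5:**
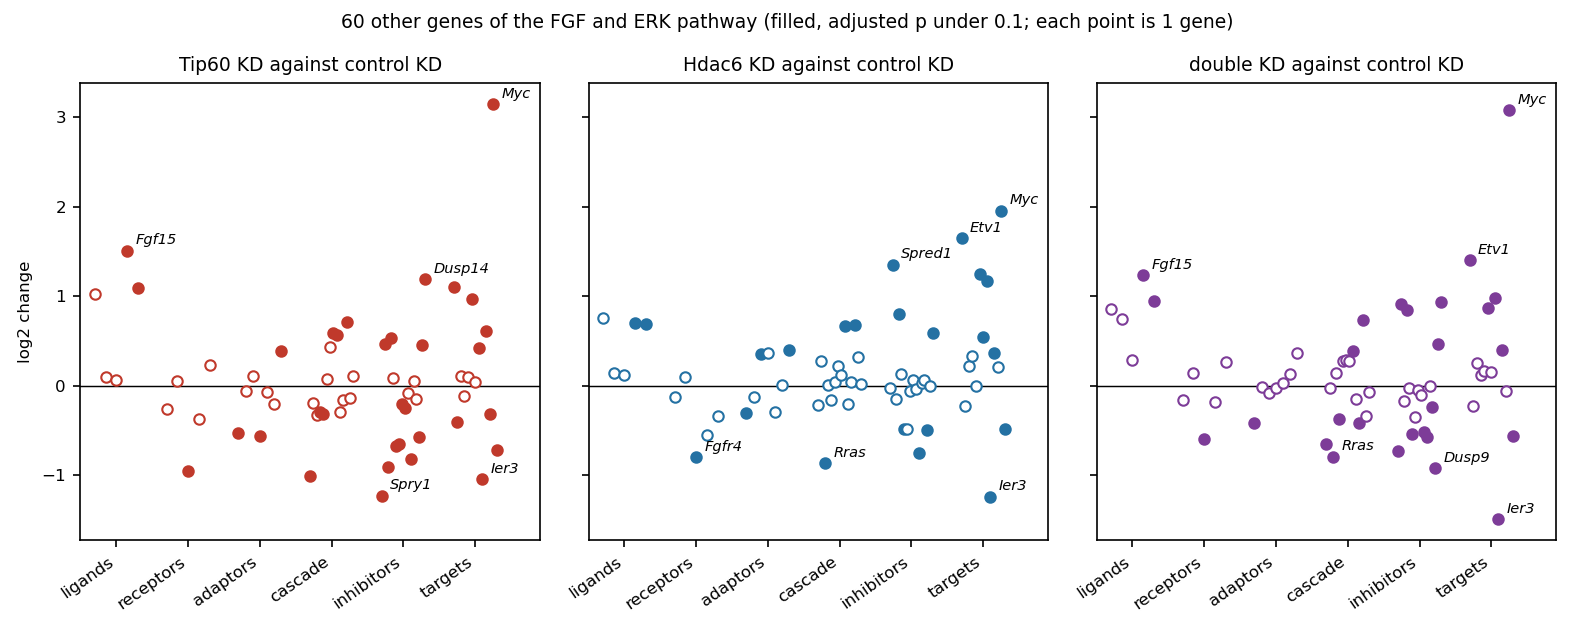
Log2 change against control KD (y axis) of the 60 other pathway genes by role (x axis) upon Tip60 KD, Hdac6 KD and double KD; each point is 1 gene, filled where the adjusted p was under 0.1, with the genes described in the text labelled where they were among the largest changes. Myc lies highest in all 3 panels, and the inhibitors scatter to both sides of 0.

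Markers of cells other than ESCs moved with some of the groups, and their part in the values above was not tested. Summed over the listed genes that could be tested, as multiples of the array's 75th percentile, the 6 neural markers reached 2.59 to 2.94 in control KD, 4.83 to 5.32 upon Tip60 KD, 3.14 to 3.54 upon Hdac6 KD and 4.47 to 4.91 upon double KD. Tubb3, a tubulin of neurons, was the only neural marker called in each KD, and the neural factors Pax6 and Neurod1 were at the floor on 6 of 8 arrays each. The 4 fibroblast markers summed to 1.84 to 2.08 in control KD, 2.50 to 2.96 upon Tip60 KD, 1.94 to 2.02 upon Hdac6 KD and 2.64 to 2.91 upon double KD, with Col1a1 and Thy1 called higher upon Tip60 KD and double KD. The 3 mesoderm markers summed to 1.07 to 1.37, 1.67 to 1.71, 1.52 to 1.57 and 1.40 to 1.58 in the same order of groups, and Eomes was called higher upon Tip60 KD. The 2 trophectoderm markers tested, Tfap2c and Krt7, summed to 10.8 to 12.3, 4.28 to 4.75, 8.63 to 9.54 and 5.06 to 6.03. Krt7 was at the floor on all 6 KD arrays and dim in control KD, so these sums were almost all Tfap2c. Tfap2c was above the floor on all 8 arrays and highest in control KD. Whether cells other than ESCs expressed it was not tested. Of 8 primitive endoderm markers 2 could be tested, Gata4 and Sox17, at the floor on 3 and 5 arrays, and none was called in any KD.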

How the data were processed

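The deposited scanner files hold the intensity of each spot from Agilent Feature Extraction 10.7.1.1, which per the file headers had subtracted a background and a spatial trend from the single Cy3 channel, with no scaling between arrays. The authors also deposited a table of log2 values with almost equal distributions in all columns (medians 8.19 to 8.20), used only as an alternative. Its normalization is not given in the sources used here. Flagged spots were left out and repeated spots averaged. Signals were divided by each array's 75th percentile, raised to the floor and put on the log2 scale, a probe was kept if 2 or more arrays had it above both background and floor, and the probe with the highest mean signal stood for its gene. Groups were compared with limma 3.58.1 in R 4.3.3, with Benjamini-Hochberg adjustment over 18116 genes, and the fit was tested on simulated data. A floor held 8.86% of values and compresses changes of dim genes. The number of arrays, 2 per group, limits the precision.

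The A minus B differences of the groups correlated across genes at 0.651 to 0.799, and the letter and the slide are the same block. The 10 genes and the pathway and marker lists were chosen with earlier results of these data known. Outside the 10 genes, the rule for genes to name took Kat5, Hdac6, the 3 largest called increases and decreases of the pathway list in each KD (1 gene is not reported here), and the 5 genes most like the one with the largest F statistic. The marker genes named, and Fosb, Ier2, Dusp1, Mcl1 and Il17rd, fall outside this rule and were chosen after their values were seen. Alternatives were normexp with an offset of 50, quantile normalization, the deposited log2 values, 1 background on every array, a floor of 0.01 or missing values, no filter, single probes, the compared arrays alone, the slide block, and each array left out.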

Additional observations from a re-analysis of the deposited data

Results flagged for a closer look

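For 3 of the 10 genes, limma's test of the interaction called a difference in the change upon Tip60 KD with and without Hdac6. By that test 22.0% of all genes passed. Hdac6 mRNA stood at 27.3% of control upon double KD and 17.8% upon Hdac6 KD, and the part of this in the differences was not tested. The difference was -0.85 on the log2 scale for Etv4 (adjusted p = 0.0104), ranging from -0.90 to -0.72 over the alternatives, and a second Etv4 probe gave -1.67. For Egr1 it was 0.65 (adjusted p = 0.0267), ranging from 0.57 to 0.73. For Fos it was 1.26 (adjusted p = 0.00912), ranging from 1.09 to 2.26, with the level at the floor on all 6 KD arrays. That 1.26 was fixed by the floor and cannot tell whether the change depended on Hdac6. The 2.26 came with the floor of 0.01 and rests in part on the Tip60 KD B array, whose spots were not well above background.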

How the results depend on the processing

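Over 67 changes of single genes (the 10 genes and the pathway genes named), 1197 values came from the alternatives, of which 1086 kept their direction and their side of the threshold, 41 no longer passed, 45 newly passed and 25 changed sign.
With the replicate block (the slide), those of the 10 genes called numbered 7 against control KD upon Tip60 KD and Hdac6 KD, 4 for double KD against each single KD and 5 for the interaction, and the other pathway genes called upon Hdac6 KD numbered 37. Quantile normalization gave 7 of the 10 genes upon Hdac6 KD (27.5% of all genes) and 2 for double KD against each single KD (3.92% against Tip60 KD, 9.64% against Hdac6 KD), and normexp gave 2 for double KD against Tip60 KD (2.36%). For Tip60 KD against Hdac6 KD, 2 of the 10 genes passed with 1 background on every array (21.4% of all genes), with no filter (11.2%), and with the compared arrays alone (13.3%). For double KD against Hdac6 KD the compared arrays alone gave 0, over all genes too. Leaving out 1 array at a time gave 4 of the 10 genes upon Tip60 KD (29.1% to 38.1% of all genes), 3 to 4 upon Hdac6 KD (14.7% to 27.0%), 4 to 5 upon double KD (20.7% to 30.6%), 2 to 3 for Tip60 KD against Hdac6 KD (10.8% to 20.8%), 0 for double KD against Tip60 KD (0 to 12 genes in all), 0 to 1 for double KD against Hdac6 KD (0.862% to 7.10%) and 3 for the interaction (11.1% to 15.2%), and 22 to 32, 17 to 24 and 20 to 26 other pathway genes upon Tip60 KD, Hdac6 KD and double KD. No other counts of calls moved by over 1.5 times, and the causes were not tested.

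The sign changes were of uncalled values. Fgfr1 upon Tip60 KD was -0.01 with the deposited log2 values and -0.003 with 1 background on every array. Spry2 upon Tip60 KD was -0.03 with normexp, -0.07 with quantile normalization, -0.06 with the deposited values and -0.01 with 1 background, and with missing values it was 0.53 upon Hdac6 KD and 0.50 upon double KD. Etv5 upon Tip60 KD was 0.07, 0.02, 0.09 and 0.03 under the same 4 settings in that order, and Fgf4 upon double KD was 0.01 with quantile normalization. Without 1 array, the ranges were -0.01 to 0.07 for Fgfr1, -0.17 to 0.35 for Spry2 and -0.12 to 0.03 for Etv5 upon Tip60 KD, -0.57 to 0.53 for Spry2 upon Hdac6 KD, -0.02 to 0.16 for Fgfr1 and -0.57 to 0.50 for Spry2 upon double KD, and -0.56 to 0.09 for Spry4 in double KD against Hdac6 KD. Fos could not be fitted with values under the floor left missing, and the interaction has no fit with the compared arrays alone.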

Other observations

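Among other immediate early genes of the pathway list, Fosb and Ier2 rose where Fos and Egr1 fell, while Dusp1 and Mcl1 fell. All of these, and Il17rd, were chosen after their values were seen. Fosb, a close relative of Fos, rose by 0.97 ± 0.30 upon Tip60 KD (limma adjusted p = 0.0558), by 1.25 ± 0.30 upon Hdac6 KD (adjusted p = 0.036) and by 0.87 ± 0.30 upon double KD (adjusted p = 0.0915). Its levels were -2.40 and -2.56 in control KD and between -1.75 and -0.75 in the KDs. Ier2 rose by 0.42, 1.17 and 0.98 upon Tip60 KD, Hdac6 KD and double KD (adjusted p = 0.0352, 0.00316 and 0.00382), from levels at or near the floor in control KD. Dusp1, an immediate early phosphatase, fell by 0.81, 0.75 and 0.57 (adjusted p = 0.00415, 0.00977 and 0.0183), and Mcl1, a survival factor of the Bcl-2 family, fell by 0.72, 0.48 and 0.56 (adjusted p = 0.0017, 0.00949 and 0.00528).

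Il17rd, known as Sef, a membrane inhibitor of FGF signalling that is itself induced by it, rose by 0.54, 0.81 and 0.85 (adjusted p = 0.0087, 0.0049 and 0.00359). Its levels were 1.06 and 0.86 in control KD and between 1.48 and 1.82 in the KDs, without overlap.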
